A study of Mus musculus with 96 samples.

Results

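The clones described here are the 381 mCHERRY barcodes that held at least 100 and under 1000 CPM (counts per 1000000 barcode reads) in GMP_T0, the pool of GMP-derived leukaemia cells sampled before transplantation, and that stayed under 10000 CPM in every marrow and spleen library of mice given GMP-derived cells. They are 381 of the 3078 mCHERRY barcodes and of the 4675 barcodes in all. Because they were chosen by their level in the pool and by a ceiling in the recipients, a low level in the mice is part of the rule and is given as a description only. The ceiling removed 5 of the 386 barcodes in the pool band.

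The cells came from the bone marrow of female C57BL/6 mice aged 6 to 8 weeks, sorted either as LSK cells (Lin-, c-Kit+, Sca-1+), an immature population that contains the haematopoietic stem cells, or as GMP cells (Lin-, c-Kit+, CD34+, FcγR high), the granulocyte-monocyte progenitors. All recipients carried cells transduced with the MLL-AF9 retrovirus and then with a SPLINTR barcode library, GFP for LSK-derived and mCHERRY for GMP-derived cells. GMP-derived cells were given alone to 4 Ptprca mice (mice 5 to 8) and 4 NSG mice (mice 13 to 16), and together with LSK-derived cells to 4 Ptprca mice (mice 17 to 20) and 4 NSG mice (mice 21 to 24). The labels call the last 2 groups LSK_GMP. Ptprca mice are immunocompetent, and NSG mice lack T, B and NK cells. A further 7 mice with LSK-derived cells alone (3 Ptprca, 4 NSG) received no mCHERRY cells and gave the background. Marrow and spleen were sequenced from every mouse with GMP-derived cells except mouse 24, which had spleen only. Mice given the same cells, alone or mixed, drew on the same pool, and the tables of the hosts were deposited separately. Whether the libraries of both hosts were prepared together, and the age of the recipients, are not given in the sources used here.

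MLL-AF9 is a fusion of a chromatin regulator with part of a transcriptional elongation factor, and it can turn both stem cells and committed myeloid progenitors into transplantable leukaemia. A SPLINTR barcode is a short heritable DNA tag that is also transcribed, so that the descendants of 1 tagged cell can be counted as a clone. In such transplants a few clones commonly come to hold most of the leukaemia. The low part of the input pool shows how often a clone that started small was still measurable at the end.

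Levels in the mice are given per 1000000 mCHERRY reads of the library, so that mice with and without LSK-derived cells are on 1 scale, and the level in a mouse is the mean of its marrow and spleen. A clone was called present at 10 CPM or more on this scale. The band and the ceiling of the rule used CPM as deposited, over all barcode reads of a library. In libraries of mice given both origins, 20.4% to 67.6% of reads were mCHERRY. The ceiling thus lay higher there on the scale of mCHERRY reads than in mice with GMP-derived cells alone. In the 31 libraries that hold GMP-derived cells, 1562645 to 7341241 mCHERRY reads were recovered, and a clone with 0 reads may hold up to 3 reads, which is 0.409 to 1.92 CPM. These limits cover counting error only. The level is a share of the leukaemia, not a number of cells. In the 14 libraries of mice that received no mCHERRY cells, 8 held none of the 381 clones, the other libraries held up to 58 of them, and the highest level was 1.11 CPM as deposited, so no clone reached 10 CPM there. In 1 library with GMP-derived cells, the marrow of mouse 8, 374 of the 381 clones were above 0, against 3 to 67 in the other libraries. Of those, 343 were under 10 CPM, at a median of 1.08 CPM or 7 reads. Their median was 0.321% of the pool level, and their levels ranked with the pool (Spearman rho 0.80 over these clones, which share 1 library). The part of carry-over from the pool in this pattern was not tested. Counts of clones above 0 in mouse 8 are therefore not comparable with those of other mice, whereas counts at 10 CPM or more do not include these traces.

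In the pool the 381 clones ranked from 222 to 607 among the mCHERRY barcodes. They held 100.3 to 999 CPM, with a median of 296.6 CPM, which rested on 487 to 4850 reads per clone. Together they made up 14.3% of GMP_T0. The mixed pool GMPLSK_T0, which the rule did not use, held 49.4% mCHERRY reads, and the same clones made up 14.7% of these. In that pool their levels ran from 41.4 to 1273 CPM, and 372 of the 381 were within 2-fold of their level in GMP_T0. The log2 ratio of the pools had a median of 0.03 and an SD of 0.39 over clones. The 9 clones outside 2-fold comprised 7 that were lower and 2 that were higher in the mixed pool. Each pool was 1 sample, so this spread cannot be split into sampling and biology.

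The edges of the rule were as follows. Nearest the lower edge of the band lay clone 398602 inside, at 100.3 CPM, and clone 146529 outside, at 98.2 CPM, and neither was present in any mouse. (Clones are called by the number that ends their barcode name, as in mCHERRY_2_Barcode_398602.) At the upper edge lay clone 192518 inside, at 999 CPM, which was present in 10 of 16 mice, and clone 683940 outside, at 1003 CPM, which was present in none. Under the ceiling the highest clone was 525504, at 4396 CPM as deposited in the spleen of mouse 21. The 5 clones that the ceiling removed reached 21394 CPM (clone 74010), 26993 CPM (222912), 47210 CPM (418436), 84082 CPM (205681) and 101527 CPM (307110) in their highest library. They were present in 8 to 16 mice, and their removal sets what follows for summed shares: with them the band held 12.8% of mCHERRY reads in Ptprca mice with GMP cells alone, and without them 0.842%.

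Most of the clones were not measurable in any recipient at 10 CPM. Of the 381, 274 (71.9%) were present in none of the 16 mice and 107 (28.1%) in at least 1. Present in exactly 1 mouse were 46 clones, in 2 to 7 mice 52 clones, and in 8 or more mice 9 clones. None of the 381 was present in all 16 mice, and the most recurrent, 29905, was present in 14. This follows from the ceiling, since clones 222912, 418436 and 205681, which it removed, were present in all 16. Below the threshold, traces were common: 5 clones had 0 reads in every recipient library, and 199 had 0 reads in every library other than the marrow of mouse 8.

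The number present differed widely by host. Among Ptprca mice given GMP-derived cells alone, mice 5, 6, 7 and 8 held 43, 46, 33 and 31 of the clones (mean 38.3 ± 7.4, SD, n = 4). Among NSG mice given the same cells, mice 13, 14, 15 and 16 held 9, 5, 7 and 9 (7.50 ± 1.91). The groups did not overlap, and the lowest Ptprca mouse held more clones than the highest NSG mouse. With LSK-derived cells present, Ptprca mice 17, 18, 19 and 20 held 25, 21, 17 and 30 clones (23.3 ± 5.6, n = 4). NSG mice 21 to 24 held 8, 8, 2 and 2 (5.00 ± 3.46). The hosts again did not overlap. Other clones under the same ceiling separated by host as well. The 205 mCHERRY barcodes at 1000 CPM or more in the pool were present at 37.6% to 46.8% in Ptprca mice with GMP-derived cells alone. In NSG mice given the same cells they were present at 9.76% to 12.2%. With both origins the ranges were 30.7% to 33.7% in Ptprca and 4.39% to 12.2% in NSG mice. Within Ptprca mice, each mouse with LSK-derived cells held fewer of the clones than each mouse without, by a margin of 1 clone between the nearest mice, 20 and 8. This separation ended without 6 libraries, set aside for reads of a library the mouse did not receive or of barcodes found in no pool. Among them was the marrow of mouse 8. That mouse then held 23 clones in spleen, against 25 in mouse 17 and 30 in mouse 20. Those counts of mice 17 and 20 rest on the mean of both tissues, so unlike tissues were set side by side. With all libraries in use, marrow held 31 to 42 clones without and 14 to 28 with LSK-derived cells. Spleen held 22 to 35 without and 12 to 22 with them. The 205 barcodes at 1000 CPM or more separated in Ptprca mice as well, with all libraries in use. Their ranges were 30.7% to 33.7% with LSK-derived cells and 37.6% to 46.8% without. The lower presence was thus not particular to the clones described here. Within NSG mice the groups overlapped. The mixed pool held 49.4% mCHERRY reads and the numbers of cells injected are not given in the sources used here, so the presence of LSK-derived cells and any difference in the dose of GMP-derived cells cannot be told apart. No p-value is given for these counts, since the ceiling of the rule used the same libraries.

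The share of mCHERRY reads held by the clones together fell far below their 14.3% in the pool in every mouse. In Ptprca mice with GMP-derived cells alone it was 1.07%, 0.745%, 1.01% and 0.535% (mean 0.842% ± 0.249, n = 4), or 5.87% of the share in the pool. In Ptprca mice with both origins it was 0.393%, 0.236%, 0.441% and 0.479% (0.387% ± 0.107), or 2.70% of the pool share. These groups did not overlap with all libraries in use. The 205 mCHERRY barcodes at 1000 CPM or more in the pool, under the same ceiling, were lower with both origins as well. In Ptprca mice they held 5.67% ± 0.89 of their pool share with GMP-derived cells alone and 4.49% ± 0.26 with both origins. The fall of these barcodes and that of the 381 clones were not compared by a test. In NSG mice with GMP-derived cells alone it was 0.192%, 0.0878%, 0.266% and 0.180% (0.181% ± 0.073), and in NSG mice with both origins 0.616%, 0.101%, 0.248% and 0.00577% (0.243% ± 0.268). The NSG groups overlapped, and single clones set their spread. In mouse 21 clone 525504 made up 85.4% of the reads of all 381, and in mouse 23 clone 1141192 made up 98.7%. In Ptprca mice the largest clone made up 13.9% to 32.0%. Without the 6 libraries set aside, the 4 means were 0.779%, 0.423%, 0.182% and 0.243%. The Ptprca groups then overlapped, since mice 6 and 8 were left with their spleen values, 0.298% and 0.217%, below each Ptprca mouse with both origins (0.377% to 0.479%).

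Some of the clones were present in many mice. Over all mice of a host, 104 clones were ever present in Ptprca and 26 in NSG mice. Of these 23 were in both, which is 22.1% of the Ptprca list and 88.5% of the NSG list. Within Ptprca, 87 clones were ever present with GMP-derived cells alone and 57 with both origins, and 40 were shared (46.0% and 70.2% of the lists). Within NSG the lists were 20 and 13 clones, with 7 shared (35% and 53.8%). In every Ptprca mouse 7 clones were present, and in every NSG mouse none was, although 4 clones were present in at least 4 of the 8 NSG mice. Clones 222912, 418436 and 205681, which the ceiling removed, were present in every mouse of both hosts. The 9 clones present in 8 or more mice held 42.0% ± 13.7 (SD, n = 8) of the reads of all 381 in Ptprca and 53.5% ± 34.2 (n = 8) in NSG mice.

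Presence is given by starting level, which the rule used, as a description. The fixed threshold of 10 CPM is a larger part of a low starting level than of a high one, so the shares present partly follow from it. Of the 128 clones at 100 to 200 CPM in GMP_T0, 18.8% were present in any mouse, and of the 66 at 200 to 300 CPM, 18.2%. The share was 31.3% of the 80 clones at 300 to 500 CPM and 43.0% of the 107 at 500 to 1000 CPM. Spearman's rho between pool level and number of mice was 0.25 over the 381 clones, which share the same pools and mice. A level at or over the pool, by contrast, was reached by 7.03%, 4.55%, 8.75% and 4.67% of the clones in the 4 bins, with no order by starting level. For comparison, the 205 mCHERRY barcodes at 1000 CPM or more in the pool, under the same ceiling, were present at 42.8% ± 3.9 in Ptprca and 10.98% ± 1.02 in NSG mice with GMP-derived cells alone (n = 4 each), against 10.0% ± 1.9 and 1.97% ± 0.50 of the 381 clones. Their summed share, however, fell to 5.67% ± 0.89 of its pool level in Ptprca and 1.61% ± 0.15 in NSG mice, beside 5.87% ± 1.74 and 1.26% ± 0.51 for the 381 clones. The 459 GFP barcodes of the same band in the LSK pool, under the same ceiling, were present at 16.6% ± 3.1 in Ptprca (n = 3) and 3.49% ± 0.75 in NSG mice (n = 4) given LSK-derived cells alone. These groups of clones were not compared by a test.

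Few of the clones ended above their starting share. Of 6096 values (381 clones in 16 mice), 39 were at or over the level in GMP_T0, and these came from 24 clones, 23 of them in Ptprca and 3 in NSG mice. Mice with both origins received the mixed pool, so for them GMP_T0 is not the pool given. In 2 or more mice 7 clones were at or over GMP_T0. Of the 5 highest folds over GMP_T0, 2 came from spleen. Clone 525504 reached 5257 CPM in mouse 21 (NSG, both origins), 17.5-fold over its 300.3 CPM in GMP_T0 and 12.1-fold over the mixed pool that this mouse received. That level was 10514 CPM of mCHERRY reads in spleen and 0 in marrow. The spleen value was 4396 CPM as deposited, the scale of the ceiling. Clone 137749 reached 1313 CPM in mouse 7 (Ptprca, GMP alone), 10.96-fold over 119.9 CPM, again from spleen (2627 CPM) with 0 reads in marrow. The spleen library of mouse 7 is 1 of those set aside, so this fold rests on it.

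The other 3 of the 5 all came from Ptprca mice with both origins and from marrow. Clone 295534 reached 858 CPM in mouse 20, which is 7.84-fold over GMP_T0 and 20.7-fold over the mixed pool, where it held 41.4 CPM. Its level was 1711 CPM in marrow and 4.95 CPM in spleen. Clone 636202 reached 1025 CPM in mouse 17, 5.30-fold over GMP_T0 and 4.87-fold over the mixed pool. It held 2000.1 CPM in marrow and 50.2 CPM in spleen. Clone 182802 reached 890.5 CPM in mouse 20, 5.18-fold over GMP_T0 and 5.32-fold over the mixed pool. It held 1730.1 CPM in marrow and 50.9 CPM in spleen. All 5 folds were thus carried by 1 of the tissues of 1 mouse.

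Among the clones with the highest mean level, clone 1141192 led with 756 CPM over the 16 mice, close to its 801 CPM in the pool. In Ptprca mice it held 1489, 901.5, 1658.5 and 409.5 CPM without and 256, 169.5, 1414 and 827 CPM with LSK-derived cells (mice in number order). In NSG mice it held 9.74, 0.153, 1657 and 804 CPM without and 38.4, 5.62, 2448 and 0 CPM with them. It was present in all 8 Ptprca and in 4 NSG mice and was at or over its pool level in 8 of the 16. Its NSG levels ran from 0 to 2448 CPM, and 3 of these 8 mice were at or over the pool.

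Clone 525504, the second by mean level (437 CPM), had the opposite distribution by host. In NSG mice it held 20.0, 750.4, 698 and 57.9 CPM without LSK-derived cells and 5257, 171, 0 and 0.415 CPM with them. In Ptprca mice its levels were 3.65, 7.73, 18.98 and 0.619 CPM without and 5.20, 2.34, 0.678 and 0 CPM with them. It was present in 6 NSG mice and in 1 Ptprca mouse.

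Clone 29905 was the most recurrent, at 669 CPM in the pool. It held 614.5, 41.5, 872 and 542 CPM in Ptprca and 542, 45.5, 38.8 and 305 CPM in NSG mice with GMP-derived cells alone, and the hosts overlapped. With LSK-derived cells it held 160.2, 46.2, 79.8 and 17.5 CPM in Ptprca and 40.1, 4.55, 0.320 and 24.1 CPM in NSG mice. Clone 635071, present in 11 mice, held 249.7, 651, 412 and 201 CPM in Ptprca and 39.8, 0, 1.91 and 0 CPM in NSG mice with GMP-derived cells alone. Each of these Ptprca mice lay above each of these NSG mice. With LSK-derived cells its levels were 257, 133, 232 and 57.4 CPM in Ptprca and 266, 13.99, 1.28 and 0 CPM in NSG mice, where mouse 21 was higher than every Ptprca mouse of the group.

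The other 6 of the 10 highest were mostly Ptprca clones. Clone 430765 held 965 CPM in mouse 8 and 1368 CPM in mouse 19 and 52.0 CPM or less in each other mouse. Clone 337156 held 1399 CPM in mouse 6, 638 CPM in the NSG mouse 13 and 241 CPM in mouse 5, and 29.1 CPM or less elsewhere. Both were thus high in a few unrelated mice. Clone 636202 was present in 9 mice, 5 Ptprca and 4 NSG, from the lowest starting level of the recurrent clones (193 CPM in the pool, among the 9 clones present in 8 or more mice). Clones 192518 and 392452 were present in 7 and 8 Ptprca mice and never reached their pool level, with a highest fold of 0.508 and 0.617. Clone 32578 was present in 5 Ptprca mice, at 1122 CPM in mouse 5, and had 0 reads in all 8 NSG mice.

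The host comparison was fitted with limma on log2(CPM + 10) over all mCHERRY barcodes with a mean of 100 CPM or more, so that each clone was read against the spread between mice. In mice with GMP-derived cells alone, 88 barcodes were tested and 49 called at an adjusted p under 0.05 (55.7%). Only 16 of the 381 clones passed the filter, and a clone that passed through 1 host alone had to differ, so their count describes these 16. Called were 5 of the 16, with 4 higher and 1 lower in Ptprca, a share below that of all tested barcodes. Their median log2 difference, Ptprca over NSG, was 2.81, beside 2.93 for all 88 barcodes. Clone 635071 was higher by 4.49 ± 0.76 (SE, adjusted p = 0.000637), clone 392452 by 3.87 ± 0.87 (adjusted p = 0.00352), clone 32578 by 4.43 ± 1.25 (adjusted p = 0.0135) and clone 192518 by 3.15 ± 1.07 (adjusted p = 0.0276). Clone 525504 was lower, at -3.46 ± 1.10 (adjusted p = 0.0224). The 4 higher clones passed the filter through the Ptprca mice and 525504 through the NSG mice, so each had to differ in its direction. With a filter on the pool in its place, which does not use the mice, 635071, 392452 and 148071 (named after its values were seen) were called, and the calls of 32578 (adjusted p = 0.104), 192518 (0.215) and 525504 (0.155) were lost.

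The direction of the 4 higher clones was a direction of share, and it depended on the scale. With each mouse centred on its median tested barcode, which lowered the median difference by 4.91 log2 units, all 4 turned negative (-0.42 for 635071, -1.04 for 392452, -0.48 for 32578, -1.75 for 192518) and none was called. On that scale 3 clones were called, all lower in Ptprca (525504, 29905 and 768956), and over all barcodes 2 of 33 calls were higher in Ptprca in place of 42 of 49. Clone 525504 was lower in Ptprca on both scales. Before centring, 29905 and 768956 differed by 1.26 and 1.91, higher in Ptprca, and were not called, so their calls came with the shift. Centring took the median difference of all barcodes from 2.93 to -1.98, so a sign on that scale is relative to the median barcode. Clone 32578 had 0 reads in every NSG mouse, so its negative value came from the shift alone. Without mouse 5, and equally without the libraries set aside, only 635071 was called. Without mouse 14, 3 clones were called.

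In mice with both origins, 67 barcodes were tested and 24 called (35.8%). Of the 381 clones 9 were tested and 1 was called, clone 392452, which was higher in Ptprca by 4.63 ± 0.92 (adjusted p = 0.00142). Its levels were 519.5, 165, 509 and 80.3 CPM in Ptprca and 0.869, 0.269, 0.320 and 0 CPM in NSG mice, with no overlap, so it passed the filter through the Ptprca mice alone and had to differ. The median log2 difference of the 9 clones was 1.54, beside 1.82 for all 67 barcodes. Centred on the median barcode, a shift of 4.24, clone 392452 differed by 0.39 and was not called, while clones 525504 and 636202 were called as lower in Ptprca. Before centring these differed by -3.07 and -0.81 and were not called by limma, so their limma calls came with the shift. Clone 636202 held its highest level of all 16 mice, 1025 CPM, in the Ptprca mouse 17. With centring, 3 of 26 calls over all barcodes were higher in Ptprca, in place of 23 of 24. Without mouse 23, which held 2448 CPM of it, clone 1141192 was called as well. NSG mice 21, 22 and 24 held 38.4, 5.62 and 0 CPM. The clone then passed the filter through the Ptprca mice alone and had to differ.

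The presence of LSK-derived cells was compared within each host. Mice with and without these cells received different pools, so pool and presence cannot be told apart. In Ptprca mice 101 barcodes were tested and 2 called (1.98%), and none of the 20 clones tested was called by limma (3 at an unadjusted p under 0.05) or by edgeR's quasi-likelihood test (4 at an unadjusted p under 0.05). Their log2 differences, both origins over GMP alone, ran from -3.21 to 2.33 with a median of -1.18, beside -0.69 for all barcodes. The smallest adjusted p was 0.279. Centring, a shift of -1.22, left none of the clones called, and over all barcodes 4 of 4 calls were then higher with LSK-derived cells, in place of 0 of 2. Without mouse 8, clone 32578 was called as lower with LSK-derived cells present (log2 difference -4.40, adjusted p = 0.0288). This clone held 63.1 CPM or less in each Ptprca mouse with both origins. It passed the filter through the mice with GMP-derived cells alone, so it had to differ in this direction. Mouse 8, which was left out, held 2.95 CPM of it, the lowest of the Ptprca mice with GMP-derived cells alone. In NSG mice 48 barcodes were tested and 2 called (4.17%), and none of the 4 clones tested was called by either tool, nor passed an unadjusted p of 0.05. Their differences ran from -2.71 to 1.15. After centring, a shift of -2.62, none of the 4 was called, and over all barcodes 5 of 5 calls were higher with LSK-derived cells in place of 0 of 2. Whether the effect of LSK-derived cells differed between hosts was tested as an interaction over all 16 mice. Of 82 barcodes 1 was called (1.22%), and none of the 11 clones was called by limma (0 at an unadjusted p under 0.05) or by edgeR (2 at an unadjusted p under 0.05). Clone 32578 had 0 reads in all 8 NSG mice, so its interaction (-3.05, or -4.40 and adjusted p = 0.0405 without mouse 8) restates its difference in Ptprca mice and does not compare hosts.

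Marrow held more of these clones than spleen in Ptprca mice. Of 8 Ptprca mice 7 had more of the clones present in marrow, with 29.1 ± 8.8 (SD, n = 8) in marrow and 22.1 ± 7.3 in spleen. Per mouse 15.4 clones were present in both tissues on average, 13.8 in marrow alone and 6.75 in spleen alone. The summed share was higher in marrow in all 8 mice, at 1.003% ± 0.509 against 0.226% ± 0.129, and the fold between tissues ran from 3.05 to 8.12 with a median of 4.01. In the 7 NSG mice with both tissues, 4.86 ± 1.86 clones were present in marrow and 5.00 ± 2.71 in spleen. Their summed share was 0.232% ± 0.187 in marrow and 0.251% ± 0.409 in spleen, and it was higher in marrow in 4 of the 7. The fold between tissues ran from 0.0583 in mouse 21 to 79.8 in mouse 23.

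Single clones were compared between tissues within mouse. In Ptprca mice 101 barcodes were tested and 40 called (39.6%), and 3 of the 20 clones tested were called, all higher in marrow. Clone 29905 was higher by 2.62 ± 0.76 log2 units (adjusted p = 0.0116), clone 32578 by 2.54 ± 0.92 (adjusted p = 0.0317) and clone 635071 by 1.96 ± 0.68 (adjusted p = 0.0258). Clone 29905 held 14.4 to 1720 CPM in marrow (median 220.3) and 6.63 to 92.3 CPM in spleen (median 27.6), and was higher in marrow in 7 of 8 mice. Clone 635071 held 49.7 to 1216 CPM in marrow (median 337) and 8.46 to 299 CPM in spleen (median 76.8), and was higher in marrow in 6 of 8. Clone 32578 held 0 to 2214 CPM in marrow (median 73.0) and 0 to 63.7 CPM in spleen (median 0.972), and was higher in marrow in 6 mice and in spleen in 1. In each clone the ranges of the tissues overlapped, and the difference lay within mice. Clones 29905 and 32578 stayed under the level of the filter in every spleen, at 92.3 and 63.7 CPM or less. Both thus passed the filter through marrow alone, and their mean level had to be higher there.

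These tissue calls also depended on scale and on single mice. The median difference of the 20 clones was 1.22, beside 1.41 for all barcodes. Centring on the median barcode lowered it by 2.10 and left none of the 3 called, with 635071 at -0.14, while clones 137749 and 660180 were called as higher in spleen. Before centring these differed by -0.88 and -0.16 and were not called, so the calls came with the shift. Clone 137749 had a median of 0 CPM in both tissues and was higher in marrow in 3 mice and in spleen in 2. Its highest level, 2627 CPM, came from the set-aside spleen of mouse 7. Over all barcodes 1 of 14 calls was then higher in marrow in place of 37 of 40. Without mouse 5, 6 or 7, 1 clone (29905) was called, and without the libraries set aside, with the filter on the pool, or by edgeR, none was. In NSG mice 47 barcodes were tested and 0 called (0%), and none of the 4 clones was called by limma (1 at an unadjusted p under 0.05) or by edgeR (0 at an unadjusted p under 0.05). The difference of the tissue effect between hosts was called for 4 of 78 barcodes (5.13%) and for none of the 11 clones by limma (2 at an unadjusted p under 0.05) or edgeR (1 at an unadjusted p under 0.05), with log2 values of 0.20 to 2.71. After centring, a shift of 2.40, none of the 11 was called, and over all barcodes 0 of 5 calls were positive in place of 3 of 4.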

How the data were processed

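Barcodes amplified from genomic DNA, per the labels, were measured in 96 sample records that the authors collapsed to 48 columns, 1 per mouse tissue or pool. Since the labels' extraction text describes loading cells on a droplet chip, the source of that DNA remains unclear. The deposited values are CPM, scaled by the authors to 1000000 per column. How PCR duplicates were combined is not given in the sources used here. Bowtie 1.2.2 and R 3.6 appear in the submitters' processing notes, without settings. Within 0.01 of a read, 100% of values were whole reads, giving 5239254 to 7814019 reads per library with GMP-derived cells. No column was left unused.

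mCHERRY values were rescaled to 1000000 per library. limma 3.58.1 (lmFit, eBayes with trend, two-sided, Benjamini-Hochberg) was run in R 4.3.3 on log2(CPM + 10) over mCHERRY barcodes with a mean of 100 CPM or more, so differences of low clones are understated. The methods were tested on simulated data. Tissue fits were paired by the mouse number in the labels. Deviations of marrow and spleen of 1 mouse correlated at a median r of 0.21 in Ptprca and 0.23 in NSG mice, across clones. edgeR 4.0.16 was run on the recovered reads. p-values measure the spread between mice. Mice with GMP-derived cells alone shared the pool GMP_T0, and mice with both origins shared the pool GMPLSK_T0.

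Named clones were the 10 highest by mean, the 5 highest by fold over the pool, up to 5 called per direction and comparison, the 3 most recurrent and those nearest each edge of the rule. Clones 768956, 660180, 148071 and those beyond the ceiling were named after their values were seen. The members, lists and tests were chosen with earlier results of these data known. Barcode sequences are not used here.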

Additional observations from a re-analysis of the deposited data

Results flagged for a closer look

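Values far from the others of their group, by Dixon's criterion, were found in 10 of 40 groups of 4 to 8 mice examined. The criterion's rate of about 1 in 20 is for normally distributed values. Some groups of clone levels were mostly 0, and the single clones were named for high levels in the same mice. The count of groups is therefore not comparable with that rate. The number of the 381 clones above 0 in marrow was 374 in mouse 8 among Ptprca mice and 34 in mouse 13 among NSG mice. The summed share in spleen was 1.16% in mouse 21, the highest of the NSG mice. The remaining 7 were levels of single clones, each highest in 1 of 4 mice. Clone 1141192 held 2448 CPM in mouse 23 and clone 525504 held 5257 CPM in mouse 21, both NSG mice with both origins. Clone 635071 held 39.8 CPM in mouse 13 and 266 CPM in mouse 21. Clone 430765 held 965 CPM in mouse 8, 1368 CPM in mouse 19 and 34.9 CPM in mouse 21. Mouse 21 carried 3 of these 7 levels. The cause was not tested.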

How the results depend on the processing

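The order of the 4 recipient groups by number present (Ptprca above NSG) held under each alternative, but levels moved with tissue, threshold and rule. With marrow alone, the summed share was 1.37% in Ptprca mice with GMP-derived cells alone and 0.634% with both origins, NSG mice with GMP cells alone held 5.25 clones, and 4 clones were in every Ptprca mouse. With spleen alone the Ptprca groups held 27.3 and 17 clones and shares of 0.313% and 0.140%. As deposited CPM, the share with both origins in Ptprca was 0.244%, since LSK-derived reads then count. With no ceiling, the shares were 12.8%, 9.53%, 6.45% and 6.30%, the NSG groups held 12.5 and 9 clones, and 11 and 3 clones were in every Ptprca and every NSG mouse. With the band set on the mixed pool, NSG mice with GMP cells alone held 9.75 clones and a share of 0.289%, Ptprca mice with both origins a share of 0.557%, and 1 clone was in every NSG mouse. At 1 read or more the groups held 148, 52.8, 27.3 and 13.3 clones (marrow 90.8 and spleen 45.0 in Ptprca, 11.4 and 16.4 in NSG). At this threshold 5 clones were in no mouse, 11 in every Ptprca and 1 in every NSG mouse. The 148, the 90.8 and the 5 depend on the traces in the marrow of mouse 8, where 374 clones were above 0. Mice 5, 6 and 7 of its group held 82, 72 and 63, and 199 clones had 0 reads in every other library. At 100 CPM or more the first 3 groups held 15.3, 8.75 and 3 (marrow 13.6 and spleen 3.75 in Ptprca, 2.43 and 2.14 in NSG), and 1 clone was in every Ptprca mouse.

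Leaving out each mouse in turn gave 35.7 to 40.7, 21 to 25.3, 7 to 8.33 and 4 to 6 clones per mouse, shares of 0.765% to 0.944%, 0.357% to 0.438%, 0.153% to 0.213% and 0.118% to 0.322%, and 274 to 284 clones in no mouse, 7 to 8 in every Ptprca and 0 in every NSG mouse. By tissue it gave 27.3 to 31.3 clones and 0.873% to 1.09% in Ptprca marrow, 20.3 to 23.6 and 0.187% to 0.245% in Ptprca spleen, 4.50 to 5.33 and 0.189% to 0.269% in NSG marrow, and 4.50 to 5.67 and 0.0992% to 0.292% in NSG spleen. Called clones ranged from 1 to 7 and from 1 to 2 for the host (GMP alone, both origins), 0 to 1 for LSK-derived cells in Ptprca and for the interaction, 0 in NSG, and 1 to 3, 0 and 0 for the tissue in Ptprca, in NSG and between hosts.

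For the host with GMP cells alone, 5 calls became 8 at a pseudocount of 1 CPM or with no ceiling, 1 with no filter on low values, 3 after centring, 9 by edgeR on reads, 3 over all barcodes at 100 CPM in the pool, and 1 without the libraries set aside or in spleen alone. With both origins, 1 call became 3 with no ceiling or with all 4 groups in 1 fit, 4 at a minimum of 10 CPM, 0 as deposited CPM, and 2 after centring or by edgeR. For LSK-derived cells in NSG mice, 0 became 1 with no ceiling. For the tissue in Ptprca mice, 3 became 5 with no ceiling, 1 at a minimum of 10 CPM, and 0 with no filter, by edgeR, over all barcodes of the pool or without the libraries set aside. Centring turned the sign of 635071 (-0.42), 392452 (-1.04), 32578 (-0.48) and 192518 (-1.75) between hosts and of 635071 between tissues (-0.14). These signs are relative to the median barcode, and 32578 had 0 reads in every NSG mouse. Without the mouse as a replicate block, 2 clones were called between tissues in Ptprca, 0 in NSG mice and 0 for the difference between hosts. The fits over all pool barcodes gave 284 calls for the host with both origins and 292 for the tissue in NSG mice. In these fits, and in that for LSK-derived cells in NSG mice, 55.2% to 57.3% of barcodes had no variance, which limma reports as unreliable, so they were not used. Pool-filtered fits, fits without set-aside libraries, and those with no ceiling were added after seeing the data.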
